A study of Mus musculus with 10 samples.

Results

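The effect of losing the transcription factor c-Maf that gut and spleen regulatory T cells (Tregs) have in common was measured over all 10 of the 10 libraries of the series, 5 from Maf-deficient and 5 from control mice. Libraries were assigned by their labels alone. A single term for genotype was estimated beside a term for tissue. A gene can be called for it from 1 tissue alone where the other holds few counts. Mice were of the C57BL/6 strain. All groups carry Foxp3Cre-YFP, a Cre recombinase with YFP driven by Foxp3. The controls, called WT here, carry it alone, and the Maf-KO mice also carry Maffl/fl, so that Maf is deleted in cells that express Foxp3. CD4+, TCR beta positive, YFP+ cells were sorted from gut, which pooled colon and small intestine, or from spleen. There were 2 WT gut libraries (replicates 1 and 3), 2 Maf-KO gut libraries (replicates 2 and 3), 3 WT spleen libraries and 3 Maf-KO spleen libraries (replicates 1, 2 and 3 each). The labels give no age. The sample titles carry 6 numbers, and 4 of them appear on a gut and a spleen library of the same genotype and replicate. The 10 libraries are therefore not clearly 10 independent samples. The labels do not say that a number is an animal, and p-values measure the spread between these libraries.

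c-Maf, the product of Maf, is a bZIP factor of the AP-1 superfamily. It binds Maf recognition elements as a homodimer or with other bZIP proteins. In T cells it is known as an activator of Il10 and as a factor of Th17, follicular helper and effector regulatory T cells. In the intestine it supports the Tregs that arise in response to the microbiota.

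Libraries held 8567035 to 13983965 counts. Levels are given as counts scaled by the library's TMM-normalised total (CPM), and 3 counts, the limit that a count of 0 allows, stood at 0.215 to 0.35 CPM of the unscaled totals. Markers of T cells were present in every library, with Cd3e at 706 to 1470 CPM, Cd4 at 586 to 1160 CPM and Foxp3 at 114 to 212 CPM. Markers of other cells were counted too. Summed over 8 plasma cell genes the level was 9070 to 19800 CPM in WT gut and 5320 to 14000 CPM in Maf-KO gut, against 1400 to 2230 CPM in WT spleen and 1470 to 2140 CPM in Maf-KO spleen. The 10 myeloid genes summed to 103 to 226, 96.1 to 288, 164 to 873 and 141 to 499 CPM in the same order. Sums over 12 pancreatic acinar genes were 41.7 and 199 CPM in WT gut and 16 and 27.3 CPM in Maf-KO gut, and the genotypes did not overlap there. In spleen they were 7.63 to 11.9 CPM in WT and 6.39 to 27 CPM in Maf-KO. Of the 6 acinar genes tested 2 had an unadjusted p under 0.05, both lower. None of the 73 tested members of 10 marker lists, that of T cells among them, was called for genotype by edgeR. An unadjusted p under 0.05 was found for 4. Over all genes tested, 0.197% were called and 8.45% had an unadjusted p under 0.05, so few calls could be awaited among so few genes. The part of these other cells in the results was not tested. Between tissues the libraries differed far more than between genotypes. The leading principal component carried 64.4% of the variance and separated gut from spleen, and PC2 (8.27%) mixed the genotypes. On PC3 (7.28%) the 5 Maf-KO libraries lay at -1.5 to 27.4 and the 5 WT libraries at -34.5 to -1.8, so the genotypes were separated there, by a narrow gap.

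With tissue adjusted for, a small set of genes was lower in Maf-KO than in WT Tregs, and a smaller set was higher. Besides Maf, the genes that fell include Neb and Col16a1 and those of the chemokine Ccl20, the cytokine Il10, the secreted ribonucleases Rnase4 and Ang, the bZIP partner Mafg and the surface proteins Adam8 and Slamf1. Those that rose were Ccl1, Tle1, Atp6v0d2 and Fasl. Of 13214 genes tested with edgeR, 26 (0.197%) had an adjusted p under 0.05. There were 22 lower (0.166%) and 4 higher (0.0303%). An unadjusted p under 0.05 was seen for 1117 genes (8.45%), 585 lower (4.43%) and 532 higher (4.03%). The change was at least 2-fold in 21 of the 26. In these bulk libraries fewer cells of a kind and less RNA per cell cannot be told apart. In limma-voom with a random effect of title number (the random-effect fit, correlation 0.451), 18 genes were called, 14 of them among the 26, and 582 had an unadjusted p under 0.05. Of the genes named in this paragraph, Ang, Mafg, Slamf1, Tle1 and Fasl were not called in the random-effect fit. Single libraries moved the count. Dropping 1 WT gut library left 7 (replicate 1) or 12 (replicate 3), and dropping 1 Maf-KO gut library left 11 (replicate 2) or 10 (replicate 3). For WT spleen the counts were 9, 35 and 19 when replicate 1, 2 or 3 was dropped, and for Maf-KO spleen 16, 24 and 18.

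Maf itself, on chromosome 8 from 115703253 to 115706894 (GRCm38), checks the genotype labels. It stood at 108 and 109 CPM in the WT gut libraries and at 30, 24 and 46 CPM in the WT spleen libraries. The Maf-KO libraries held 0.609 and 0.24 CPM in gut and 0.217, 1.1 and 0.195 CPM in spleen. Every Maf-KO library lay far below every WT library of either tissue. Adjusted for tissue, Maf fell by 7.03 on the log2 scale (SE 0.42, adjusted p = 4.218e-05).

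Among the secreted factors, Ccl20 encodes the ligand of CCR6, which draws CCR6-bearing lymphocytes. In gut Ccl20 measured 148 and 110 CPM in WT and 5.48 and 2.56 CPM in Maf-KO. In spleen it was scarce, with 0.801, 0.385 and 0.475 CPM in WT, and it had no count in any Maf-KO library. The spleen groups do not overlap, but they rest on 19 counts in the 3 WT libraries together. Taking 3 counts over the Maf-KO group as its limit, and the WT counts as exact, the level was at least 5.2-fold lower in Maf-KO spleen. The tissue-adjusted log2 change of Ccl20 was -5.02 (SE 0.32, adjusted p = 4.429e-05). Ccl20 is also made by gut epithelium, whose 10 marker genes summed to 139 and 176 CPM in WT gut and 146 and 157 CPM in Maf-KO gut, with Alpi at 0 in all libraries. Epcam made up most of that sum, at 124 and 167 CPM in WT gut and 128 and 119 CPM in Maf-KO gut, and was also at 29.9 to 63.8 CPM in spleen. Other members differed both ways in gut, with Cdh1 at 5.28 and 6.15 CPM in WT and 25.2 and 19.8 CPM in Maf-KO, and Krt18 at 2.26 and 2.37 CPM against 1.13 and 1.28 CPM. The part of epithelium in the Ccl20 values was not tested.

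Il10, the gene of the anti-inflammatory cytokine IL-10, had 617 and 556 CPM in WT gut and 98.4 and 128 CPM in Maf-KO gut. The spleen values were 7.65, 3.7 and 6.84 CPM in WT and 2.6, 1.76 and 2.24 CPM in Maf-KO. In each tissue all Maf-KO libraries were below all WT libraries, while Maf-KO gut libraries stayed above WT spleen libraries. The common change was -2.04 (SE 0.23, adjusted p = 0.00497). Rnase4 and Ang encode secreted ribonucleases of the RNase A superfamily and share an annotated start on chromosome 14 at 51091077, so their reads may not be separate measurements. Rnase4 held 60.3 and 51.2 CPM in WT gut, 2.87 and 2.8 CPM in Maf-KO gut, 10.3, 10.2 and 12.5 CPM in WT spleen and 2.82, 1.87 and 2.24 CPM in Maf-KO spleen. The Maf-KO level was thus close to the same in gut and spleen, although the WT levels differed. The log2 change was -3.15 for Rnase4 (SE 0.35, adjusted p = 0.00497) and -3.05 for Ang (SE 0.51, adjusted p = 0.0489). In the random-effect fit the adjusted p of Ang was 0.399.

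Transcriptional regulators were among the lowered genes. Mafg encodes a small Maf protein, a bZIP factor with no activation domain that pairs with larger bZIP partners. It had 42.9 and 43.4 CPM in WT gut and 26.2 and 26.4 CPM in Maf-KO gut. In spleen the levels were 12, 13.6 and 14.9 CPM in WT and 6.84, 5.95 and 8.77 CPM in Maf-KO. The change was modest in size and similar in the tissues, -0.82 overall (SE 0.12, adjusted p = 0.0301), and the adjusted p was 0.0754 in the random-effect fit. Arnt2 encodes a bHLH-PAS factor that dimerises with other members of that family. It had no count in any of the 5 Maf-KO libraries. In WT it stood at 10.7 and 6.15 CPM in gut and at 3.83, 4.78 and 12.3 CPM in spleen. Against 3 counts over each Maf-KO group, and with the WT counts taken as exact, Arnt2 was at least 66.8-fold lower in Maf-KO gut. In Maf-KO spleen it was at least 64.3-fold lower. The edgeR adjusted p of Arnt2 was 0.0148, with 0.0735 without WT gut replicate 1 and 0.0677 in the random-effect fit.

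Genes of the cell surface and of signalling fell as well. Adam8, a membrane metalloprotease gene, had 152 and 127 CPM in WT gut and 21.2 and 39 CPM in Maf-KO gut, and in spleen 11.6, 16.6 and 11.2 CPM in WT against 4.12, 7.27 and 6.14 CPM in Maf-KO. The genotypes were apart in each tissue, with a change of -1.66 (SE 0.26, adjusted p = 0.0322). Slamf1 encodes a lymphocyte receptor of the SLAM family, and Sh2d1a encodes SAP, the adaptor that binds the tails of such receptors. Slamf1 was at 314 and 355 CPM in WT gut, 191 and 200 CPM in Maf-KO gut, 122, 113 and 139 CPM in WT spleen and 71.7, 79.9 and 102 CPM in Maf-KO spleen. Sh2d1a was at 120 and 138 CPM, 81.9 and 77.9 CPM, 162, 131 and 222 CPM and 92.1, 105 and 101 CPM in the same order. All 5 Maf-KO libraries lay below all 5 WT libraries for Sh2d1a. The changes were -0.64 (SE 0.11) for Slamf1 and -0.75 (SE 0.13) for Sh2d1a, each at an adjusted p of 0.0489, and the adjusted p values were 0.112 and 0.169 in the random-effect fit. Stab1, a scavenger receptor gene, fell by 1.94 (SE 0.29, adjusted p = 0.0301), from 17.2 and 19.8 CPM to 6.88 and 4.47 CPM in gut. In spleen Stab1 stood at 1.07, 1.62 and 0.855 CPM in WT and 0.326, 0.22 and 0.0975 CPM in Maf-KO. Gbp2b, the gene of an interferon-inducible GTPase, fell by 2.64 (SE 0.38, adjusted p = 0.0274). It had 34.4 and 35.7 CPM in WT gut against 12.6 and 3.03 CPM in Maf-KO gut, and 11.4, 10.2 and 10.2 CPM in WT spleen against 1.19, 1.87 and 0.585 CPM in Maf-KO spleen. None of the 16 tested type I interferon response genes passed, as described with the lists.

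Further genes that fell have other roles. Neb encodes nebulin, a very large protein of muscle thin filaments. The gene, on chromosome 2 from 52136640 to 52338798, was at 240 and 189 CPM in WT gut and 43 and 55 CPM in Maf-KO gut. In spleen it was at 43.5, 26.2 and 47.6 CPM in WT and 9.01, 11.6 and 11.4 CPM in Maf-KO. Its change was nearly equal in the tissues, -2.13 in gut and -1.87 in spleen, and -1.99 together (SE 0.17, adjusted p = 6.566e-04). Col16a1, a collagen chain gene, had 8.8 and 8.29 CPM in WT gut, 0.261 and 0.0799 CPM in Maf-KO gut, and 1.6, 0.77 and 2.09 CPM in WT spleen. In Maf-KO spleen 1 count was found in 3 libraries, so the WT level was 41.1 times that of Maf-KO with a 95% counting interval of 7.04 to 1650. Col16a1 had an adjusted p of 0.00173. Snx2, which encodes a sorting nexin of the retromer, fell by 0.80 (SE 0.12, adjusted p = 0.0301), with 144 to 206 CPM over the 5 WT and 85.6 to 117 CPM over the 5 Maf-KO libraries. The adjusted p of Snx2 was 0.172 in the random-effect fit. Podnl1, a leucine-rich extracellular protein gene, fell by 2.18 (SE 0.34, adjusted p = 0.0322), and Nckap5 fell by 2.27 (SE 0.34, adjusted p = 0.0301). In spleen Nckap5 rested on 17 counts in WT and 2 counts in Maf-KO, a ratio of 6.98 with a 95% counting interval of 1.66 to 62.3. Slamf1 and the remaining called genes fell outside the rule for naming and are given, after their values were seen, as the rest of the 26. Nynrin changed by -2.06 (adjusted p = 0.0489) and Samd11 by -2.99 (adjusted p = 0.0274). Ppp1r14c, an inhibitor of protein phosphatase 1, and the predicted gene Gm12169 had at most 2 counts in any spleen library, and their adjusted p values of 0.0489 and 0.0274 rest on gut. In the random-effect fit none of these 4 passed, with adjusted p values of 0.0838 for Nynrin, 0.276 for Samd11, 0.485 for Ppp1r14c and 0.547 for Gm12169.

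The genes that rose were of varied function. Ccl1, the chemokine that signals through CCR8, had 4.4 and 5.09 CPM in WT gut and 11 and 12.2 CPM in Maf-KO gut. It had 3.65, 3.39 and 3.51 CPM in WT spleen and 11.2, 7.49 and 12 CPM in Maf-KO spleen. All 5 Maf-KO libraries exceeded all 5 WT libraries, and Ccl1 rose by 1.44 (SE 0.17, adjusted p = 0.00732). Tle1, a corepressor of the Groucho family, was at 1.89 and 1.66 CPM in WT gut, 14.6 and 11 CPM in Maf-KO gut, 2.22, 4.7 and 2.18 CPM in WT spleen and 7.92, 13.6 and 7.8 CPM in Maf-KO spleen. Here too the genotypes did not overlap across tissues, and the rise was 2.10 (SE 0.32, adjusted p = 0.0309). Atp6v0d2, a subunit of the vacuolar proton pump, rose by 1.09 (SE 0.17, adjusted p = 0.0322). It went from 25.1 and 35 CPM to 77.6 and 76.5 CPM in gut and from 9.34, 10.9 and 15.5 CPM to 21.5, 18.4 and 26.1 CPM in spleen. Fasl, which encodes the death ligand of the receptor Fas, rose by 0.70 (SE 0.11, adjusted p = 0.0322). Its levels were 124 and 96.7 CPM against 209 and 194 CPM in gut and 15.9, 12.6 and 17.3 CPM against 22.4, 22.6 and 22.3 CPM in spleen. In the random-effect fit Tle1 (0.0994) and Fasl (0.0754) did not pass, whereas Ccl1 (0.0274) and Atp6v0d2 (0.0329) did, all adjusted p values of limma-voom.

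**Figure D1:**
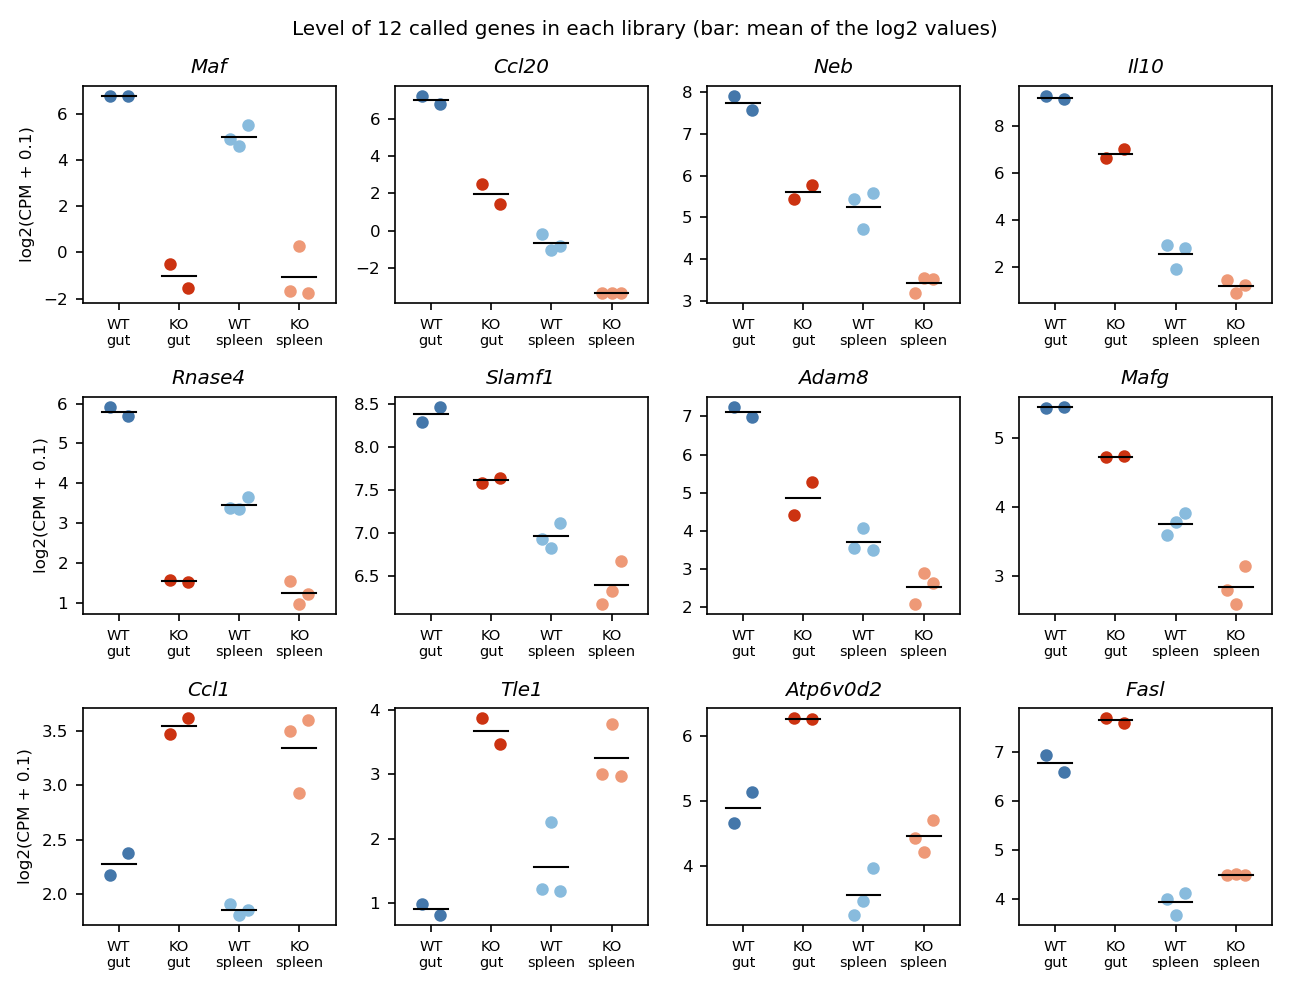
Level of 12 of the called genes in each library, as log2(CPM + 0.1) on the vertical axis of each panel, by group on the horizontal axis. Points are libraries and bars the mean of the log2 values. In every panel the Maf-KO points lie on one side of the WT points within gut and within spleen, for example Rnase4 at 2.87 and 2.8 CPM in Maf-KO gut against 60.3 and 51.2 CPM in WT gut.

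How far the effect was common to the tissues was asked by setting the gut and spleen changes side by side and by testing their difference. All 26 called genes had fitted changes of the same sign in gut and spleen, as did 7956 (60.2%) of all genes tested. In 25 of the 26 the Maf-KO and WT libraries did not overlap in either tissue. Over all genes tested, 2.67% were separated in this way. The 25 were 21 lower genes, against 1.29% of all genes lower in both tissues, and 4 higher genes, against 1.38%. Ppp1r14c was separated in gut alone, and its sign in spleen rests on 1 count in a WT library. Gm12169 is among the 25, with only 4 counts in WT spleen and 0 in Maf-KO spleen. The 26 were called on these values, so the count describes them and is no further evidence. For 8 called genes all 5 Maf-KO libraries were below all 5 WT libraries (0.288% of all genes) and for 2 they were above (0.28%). The 8 were Maf, Col16a1, Rnase4, Arnt2, Snx2, Nynrin, Ang and Sh2d1a, and the 2 were Ccl1 and Tle1. Tested within 1 tissue, 20 genes (0.151%) were called in gut and 2 (0.0151%) in spleen. Gut changes were the larger in size for 17 of the 26 and spleen changes for 9. The share over all genes was not taken, so this count is a description. Gut rests on 2 libraries per genotype and spleen on 3. Sizes with no count in a Maf-KO group depend on the prior count.

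No gene was called for a difference of the genotype effect between the tissues (edgeR interaction, 0 of 13214, 0%), with 422 (3.19%) at an unadjusted p under 0.05. DESeq2 called 8, and limma-voom called 0 with 391 at an unadjusted p under 0.05. The random-effect fit, which takes up the pairing of gut and spleen libraries, also called 0, with 974 (7.37%) at an unadjusted p under 0.05. Among the 26, 5 had an unadjusted interaction p under 0.05, and in each the gut change was the larger. Rnase4 fell by 4.29 in gut and by 2.24 in spleen, a difference of 2.05 (SE 0.30, unadjusted p = 4.576e-05, adjusted p = 0.605). For Ang the difference was 2.73 (SE 0.74, unadjusted p = 0.00439), for Adam8 1.04 (SE 0.42, 0.033), for Il10 0.93 (SE 0.39, 0.0381) and for Snx2 0.63 (SE 0.16, 0.00248), each at an adjusted p of 1. In the random-effect fit the differences were 1.97 for Rnase4 (unadjusted p = 7.354e-05, adjusted p = 0.143), 2.64 for Ang (0.0012 and 0.318), 1.18 for Adam8 (0.0128 and 0.511), 0.93 for Il10 (0.038 and 0.654) and 0.63 for Snx2 (2.559e-04 and 0.218). There 7 of the 26 had an unadjusted p under 0.05, these 5 and the genes Gm12169 (0.00732) and Ppp1r14c (0.043), which have few spleen counts. Genes separated in both tissues but in opposite directions numbered 81 (0.613%), and no named gene was among them.

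**Figure D2:**
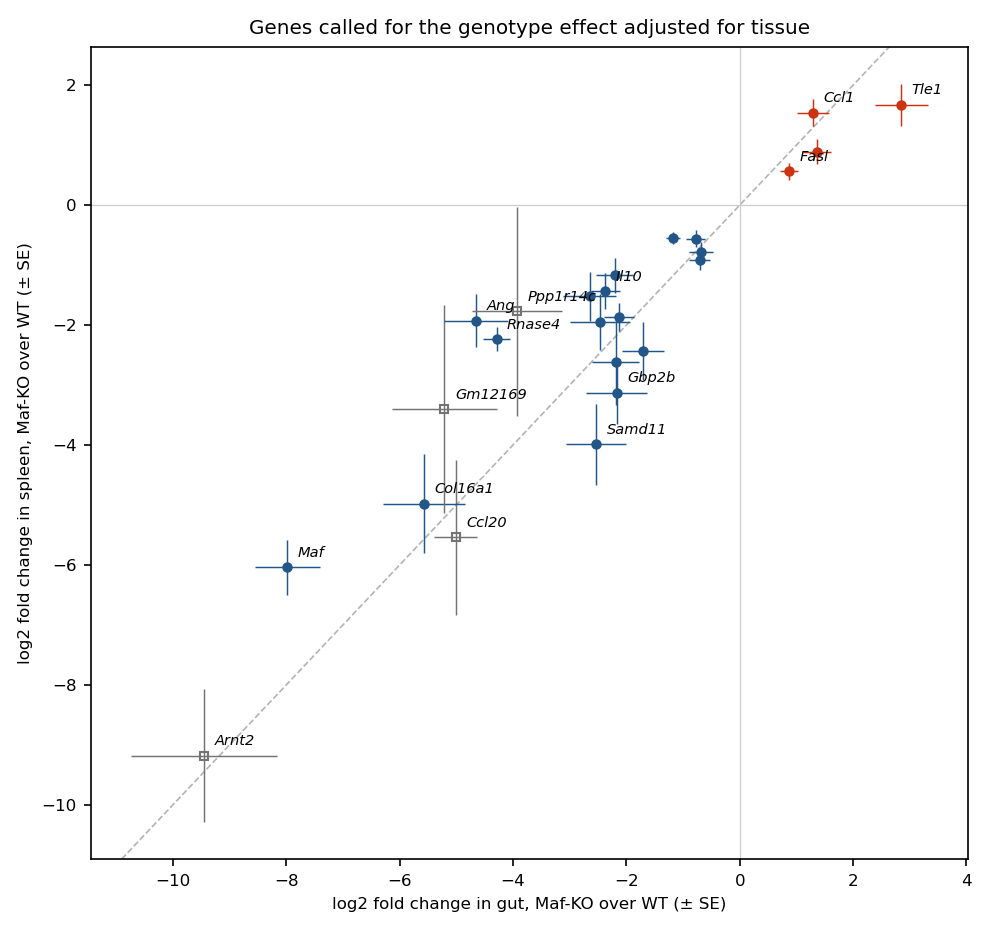
Log2 fold change of Maf-KO over WT in gut (horizontal axis) and in spleen (vertical axis) for 25 of the 26 called genes, with bars of 1 SE. Blue circles fell, red circles rose and open grey squares had no count in a Maf-KO group, so that their fitted values depend on the prior count. All points lie in the quadrants of equal sign, and Rnase4 (-4.29 and -2.24) and Ang (-4.65 and -1.93) lie farther from the dashed line of equal change than Neb (-2.13 and -1.87).

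Of the 26 called genes, 7 (26.9%) were in any of the 19 lists of T cell states and pathways, which hold 257 (1.94%) of the genes tested. The lists were chosen with earlier results of these data known, so these shares are a description. No called gene was in 14 of the lists, and over all genes 0.197% were called. The median change over all genes tested was -0.008. Of the Th17 effector genes Ccl20 fell, as given above. Il17a, the Th17 cytokine, was at 8.05 and 3.2 CPM in WT gut and 4.7 and 10.9 CPM in Maf-KO gut, with no count in spleen. Its change was 0.46 (adjusted p = 0.873). Ccr6, the receptor of Ccl20, changed by 0.11 (adjusted p = 0.837), the IL-1 receptor gene Il1r1 by 1.15 (0.439) and the cytokine gene Il21 by -2.72 (0.476). In the secreted ribonuclease list, which also holds the ribonuclease inhibitor gene Rnh1, 2 of 6 fell, Rnase4 and Ang. No tested member was positive (median -0.36), but the others were not called (Rnase6 -0.56, Rnaset2a -0.15, Rnaset2b -0.07, Rnh1 -0.04). Rnase4 and Ang share a start and may be 1 measurement, and Ang did not pass in the random-effect fit (adjusted p = 0.399).

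The effector and suppressive list held 1 called gene of 18, Il10, with a median of -0.01. Areg, which encodes the tissue-repair factor amphiregulin, had 634 and 602 CPM in WT gut and a mean of 357 CPM in Maf-KO gut (4267 and 4296 counts, the latter 343 CPM). In spleen Areg had 5.6, 5.85 and 7.12 CPM in WT and 5.43, 3.09 and 2.34 CPM in Maf-KO. The genotypes did not overlap within a tissue, but the change of -0.79 missed the threshold (SE 0.15, edgeR adjusted p = 0.139). It passed without the filter on low counts (0.0201), with DESeq2 (6.727e-06), with limma-voom (0.0183) and without Maf-KO spleen replicate 1 (0.0187). In the follicular list 1 of 15 fell, Sh2d1a, with a median of -0.21 and 5 positive members. In the random-effect fit Sh2d1a did not pass (adjusted p = 0.169). Cxcr5, the follicular homing receptor gene, changed by -0.30 (adjusted p = 0.625). Of 10 tested bZIP partners Mafg fell, and the other members, among them Mafk (0.05), Maff (-0.20), Bach2 (0.14) and Nfe2l2 (-0.30), did not pass. Mafg itself had an adjusted p of 0.0754 in the random-effect fit and lost its call in 7 of 10 fits without 1 library.

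Treg identity genes gave no call among 15 (median -0.01). Foxp3, the factor that defines the lineage, changed by -0.01 (SE 0.09, adjusted p = 0.99), Ikzf2, which encodes Helios, by -0.29 (0.615) and Lrrc32, which encodes GARP, by 0.70 (0.568). In gut Lrrc32 changed by 1.54 and in spleen by 0.15 (edgeR interaction, unadjusted p = 0.00889). Gata3, a factor of Th2 cells and of tissue Tregs, changed by -0.06 (0.931), with no call among 9 genes of its list (median 0.03). That common value joins fitted changes of opposite sign, -0.47 in gut and 0.21 in spleen (edgeR interaction, unadjusted p = 0.018). Neither gene was called for the interaction. For the 17 Th1 and cytotoxic genes the median was 0.11, with 0.48 in gut and 0.02 in spleen, and 11 were positive. No member passed. Nkg7, a cytotoxic granule gene, changed by 0.66 (adjusted p = 0.327), with 1.20 in gut and 0.30 in spleen, and passed with DESeq2 (0.0109) and with equal weight of the tissues (0.0129). Ifng, the Th1 cytokine gene, changed by 0.11 (0.931). In the gut homing list (15 genes, median -0.06) Itgae, which encodes the integrin chain CD103, changed by 0.96 (SE 0.22, adjusted p = 0.261). Itgae was at 999 and 1360 CPM in WT gut, 2170 and 2230 CPM in Maf-KO gut, 105, 167 and 201 CPM in WT spleen and 460, 215 and 273 CPM in Maf-KO spleen. It passed with DESeq2 (0.00162) and without the filter on low counts (0.0268).

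The other lists had no call either. Medians were 0.19 for cholesterol synthesis (16 of 19 positive, Dhcr7 0.22), 0.10 for type I interferon response (15 of 16 positive, Isg15 0.26), 0.08 for glycolysis (13 of 18 positive, Pfkp 0.20) and -0.20 for AP-1 and immediate-early genes (4 of 17 positive, Dusp1 -0.63). They were 0.05 for coinhibitory receptors (10 genes, Cd96 0.25), 0.07 for naive and lymphoid homing (14, Il7r -0.71), 0.10 for the aryl hydrocarbon receptor list (6, Arnt 0.13), 0.05 for TGF-beta signalling (13, Tgfb3 -1.33), 0.07 for PI3K, Akt and mTOR (18, Rptor 0.39) and -0.05 for the cell cycle (19, Mcm5 0.16). The naive and lymphoid homing median was 0.36 in gut and -0.15 in spleen.

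**Figure D3:**
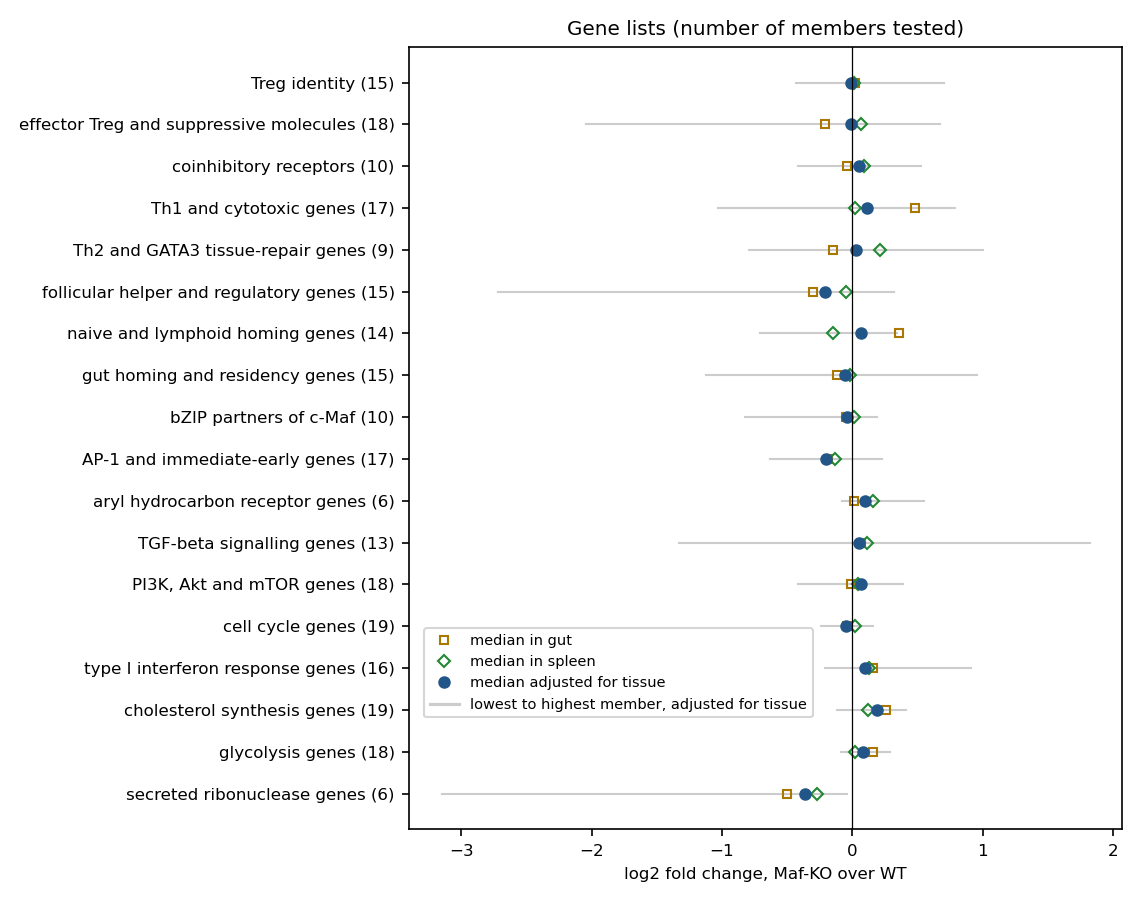
Log2 fold change of Maf-KO over WT (horizontal axis) for 18 of the 19 gene lists (vertical axis, number of members tested in brackets). Blue circles are medians adjusted for tissue, open brown squares and open green diamonds the medians in gut and spleen, and grey lines run from the lowest to the highest member. The tissue-adjusted medians lie between -0.36 for secreted ribonucleases and 0.19 for cholesterol synthesis, and the effector Treg list reaches down to -2.04 for Il10.

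How firmly each call stood was asked by repeating the fit. Maf, Ccl20, Neb and Col16a1 were called under all 23 alternatives. Il10, Rnase4 and Ccl1 were called without any 1 library, and 19 of the 26 lost the call without at least 1 library. When the gut and spleen libraries of a title number were left out together, Il10 did not pass for any of the 4 numbers (adjusted p 0.0538 to 0.0917), Rnase4 did not pass without Maf-KO replicate 2 (0.0689) or replicate 3 (0.0521), and Ccl1 did not pass without WT replicates 1 (0.141) and 3 (0.0565) or Maf-KO replicate 3 (0.0898). Among the other genes, the highest adjusted p without 1 library was 0.0956 for Gbp2b, 0.239 for Nckap5, 0.125 for Mafg, 0.164 for Adam8, 0.177 for Fasl, 0.161 for Atp6v0d2 and 0.143 for Tle1. Of the 10 fits without 1 library, 9 ended the call of Fasl and of Nynrin. The call was lost in 8 for Atp6v0d2, Adam8, Snx2, Podnl1, Ang, Slamf1, Sh2d1a and Ppp1r14c, and in 7 for Tle1 and Mafg. It was lost in 6 for Stab1 and Samd11, in 5 for Nckap5, in 4 for Gbp2b and Gm12169 and in 1 for Arnt2. The direction was the same in all alternatives for each of the 26, save that the log2 FPKM values cover 25 of them. As the genotypes did not overlap in either tissue for 25 of the 26, this was largely fixed in advance and is no further evidence.

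**Figure D4:**
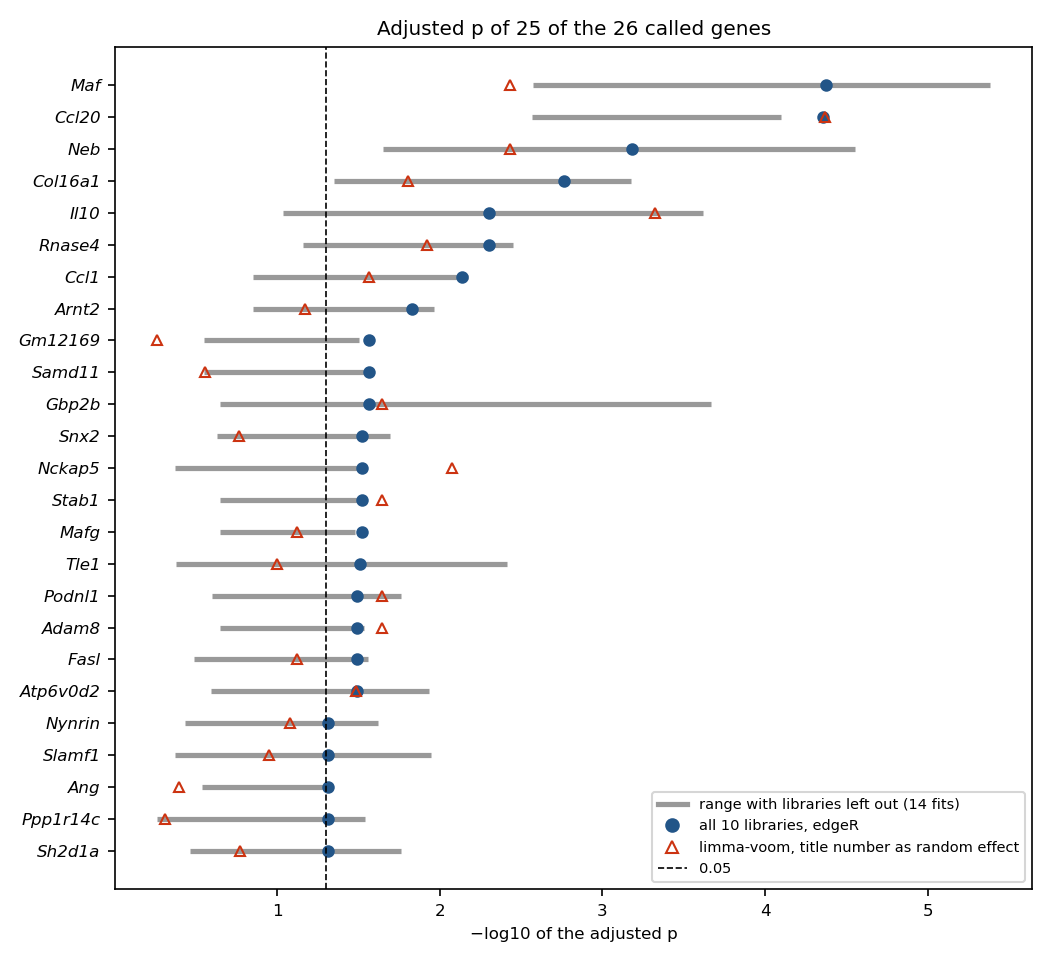
Adjusted p, as −log10 on the horizontal axis, of 25 of the 26 called genes on the vertical axis. Blue circles are edgeR with all 10 libraries, red triangles the random-effect fit, grey bars the range over 14 fits that leave out libraries, and the dashed line marks 0.05. The bars of Maf, Ccl20, Neb and Col16a1 stay to the right of the line, and 12 triangles lie to its left.

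Promoters of the called genes were examined because c-Maf binds a known sequence. Whether c-Maf binds at these genes was not tested. RefSeq promoter sequences (GRCm38.p6) were at hand for 17 of the 26 genes, and the 250 bases before the annotated start were searched on both strands. Maf, Il10, Neb, Snx2, Podnl1, Atp6v0d2, Sh2d1a and Gm12169 were among the genes without such a sequence, and their promoters were not searched. Rnase4 and Ang have the same sequence there, counted for each gene. The starts used for Ang and Samd11 were not matched in a GENCODE transcript of the gene. The core of the Maf recognition element, TGCTGA, was in 5 of the 17, and in 15.8% of 27025 promoters of the same length. Those 5 were Slamf1, Stab1, Gbp2b and Samd11, which fell, and Fasl, which rose. The longer form TGCTGAC was in 1 of the 17, Slamf1, and in 3.7% of all promoters, and it contains the core. The AP-1 site TGANTCA was in none of the 17 and in 6.9% of all. Shown are Slamf1 (chr1:171766882-171767131, plus strand), Stab1 (chr14:31168642-31168891, minus strand) and Fasl (chr1:161788496-161788745, minus strand). They are a gene with the longer form, another that fell and the gene that rose. Matches to TGCTGA or to its reverse complement are in capitals.
Slamf1: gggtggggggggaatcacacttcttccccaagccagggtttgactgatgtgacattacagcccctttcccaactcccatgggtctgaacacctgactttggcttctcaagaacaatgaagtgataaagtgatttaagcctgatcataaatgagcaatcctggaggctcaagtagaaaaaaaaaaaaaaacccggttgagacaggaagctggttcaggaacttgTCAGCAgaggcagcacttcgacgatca
Stab1: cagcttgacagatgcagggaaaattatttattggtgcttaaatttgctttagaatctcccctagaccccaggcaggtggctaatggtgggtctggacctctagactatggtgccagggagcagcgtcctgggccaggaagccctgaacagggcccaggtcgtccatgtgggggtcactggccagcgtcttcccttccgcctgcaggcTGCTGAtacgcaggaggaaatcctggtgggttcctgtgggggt
Fasl: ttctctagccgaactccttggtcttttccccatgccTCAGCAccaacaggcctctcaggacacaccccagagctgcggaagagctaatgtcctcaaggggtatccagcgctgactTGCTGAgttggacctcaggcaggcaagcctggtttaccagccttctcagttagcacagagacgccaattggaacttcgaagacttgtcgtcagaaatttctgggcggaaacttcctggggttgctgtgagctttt
A match is a stretch of letters and not a measured binding site. The match nearest the start begins 27 bases before it in Slamf1 and 43 bases before it in Stab1. In Fasl the matches begin 214 and 135 bases before it.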

How the data were processed

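RNA of sorted Tregs was sequenced in 10 libraries of 4 groups, taken from the sample labels. The authors deposited raw read counts for 27179 Entrez genes, not normalised. They also deposited log2 FPKM values for 12252 genes, per the file headers. Subread, featureCounts, limma, GRCm38 and mm10 are named in the submitters' processing notes. Versions, annotation and strand setting were not given in the sources used here. All 10 sample columns were used, and 852 entries without a symbol stayed in the totals.

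For the tests, edgeR 4.0.16 (R 4.3.3) was run on 13214 genes that filterByExpr kept for the 4 groups (at least 10 counts, total at least 15), after TMM scaling. A quasi-likelihood model of tissue plus genotype was fitted (common dispersion 0.0406, 7 residual degrees of freedom). F tests were two-sided, adjusted by Benjamini-Hochberg over all genes, and called under 0.05. SE is the log2 fold change divided by the square root of F. A fit with 4 group coefficients gave tissue effects and the interaction. The script was tested on simulated data. Folds against 0 counts are bounds against 3 counts over the group, with the WT counts taken as exact. Intervals are exact 95% and, like the floors, cover counting error only.

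Named were Maf, up to 15 called genes per direction by adjusted p with a mean of at least 2 CPM (predicted, ribosomal, mitochondrial and receptor segment genes left out), 9 fixed genes, up to 3 called members per list or else the member with the smallest p, and genes called for the interaction. Other members and called genes were named after their values were seen. Lists and members were chosen with earlier results of these data known. Alternatives used limma 3.58.1 and DESeq2 1.42.0, and kept the same genes when libraries were left out. Replicates of a group differed beyond counting (chi-square per degree of freedom 13.9 to 32.6). After group means were removed, gut and spleen libraries of the same title number correlated across genes at 0.26 to 0.38. With 2 gut libraries in a group these values depend on each other, and pairs of unlike number are not given here. Title number was taken as a pairing of libraries within a genotype in an alternative fit. Gene positions are from RefSeq (GRCm38.p6). A called gene that counts in the totals, and the list it belongs to, are not reported here.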

Additional observations from a re-analysis of the deposited data

How the results depend on the processing

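Against 26 genes called (4 higher, 22 lower), 49 were called with no filter on low counts (12 higher, 37 lower) and 81 with DESeq2 (26 higher, 55 lower). With title number as a random effect 2 higher and 16 lower genes were called. With the replicate block, which sets WT and Maf-KO libraries of the same replicate number side by side, 14 were called (10 lower), 13 of them among the 26. Same-numbered WT and Maf-KO libraries did not deviate together (correlations -0.04, -0.18 and -0.35 in spleen and -0.11 in gut). No spleen library correlated best with its own number in the other genotype. With so few libraries in a group these values depend on each other, and whether a shared number marks a batch was not tested. Leaving out 1 library, or both libraries of a title number, gave 6 to 35 calls, 0 to 10 of them higher and 6 to 25 lower. Among these were 7 calls without WT gut replicate 1, and 8, 9 and 7 without both libraries of WT replicate 3, Maf-KO replicate 2 and Maf-KO replicate 3, of which 7 were lower for WT replicate 3. The interaction count was 0 in edgeR under every library left out, and 8 with DESeq2. Setting the size factors of DESeq2 in edgeR (21 calls), limma-voom (28), log2 FPKM values (21) and equal weight of the tissues (32) stayed within 1.5 times. Of the 26 genes, these settings kept 21, 22, 20 (of 25 with a value) and 21 in the same order. Leaving out immunoglobulin genes, chosen after seeing the data, gave 26. Of 437 list medians under alternatives, 27 moved by more than the spread between libraries, among them the Th1 list (-0.02 without WT gut replicate 1, 0.33 with limma-voom) and the ribonuclease list (-0.15 without WT replicate 1 in gut and spleen). Genes with few spleen counts, such as Ccl20, Nckap5, Ppp1r14c and Gm12169, limit what can be said of spleen.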
